A study of Mus musculus with 6 samples.

Results

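The Cyp4 fatty acid hydroxylases of the mouse kidney were measured here in 9 genes: Cyp4b1, Cyp4a12a, Cyp4a12b, Cyp4a14, Cyp4a10, Cyp4a31, Cyp4a32, Cyp4f13 and Cyp4v3. They were taken by symbol from a table of 46095 rows, and all 9 passed the low-count filter that left 15367 genes for testing. The table holds RNA-seq counts of 6 kidney samples from mice of C57BL/6 background. By their treatment labels, 3 samples are DHT, meaning dihydrotestosterone, a potent form of testosterone, and 3 are controls. The strain label reads PCOS mouse for all 6, control kidneys included; PCOS is polycystic ovary syndrome, for which androgen exposure serves as a mouse model. No dose, duration, vehicle, sex or age is given, and the labels leave unsaid whether each sample is its own animal. The p-values therefore reflect sample-to-sample spread that may be technical.

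Family 4 cytochrome P450 enzymes hydroxylate fatty acids at or near the end of the chain. Cyp4a enzymes act on medium and long chains and, in the proximal tubule of the kidney, on arachidonic acid, giving a hydroxy acid that constricts vessels and changes salt transport. In mice, Cyp4a12 is known as an androgen-dependent enzyme of the male kidney, and Cyp4a10 and Cyp4a14 are known targets of the fatty acid receptor PPAR alpha. The electrons for the reaction come from P450 reductase and cytochrome b5.

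All 9 coding sequences held 1 match to the cysteine heme-ligand signature of cytochrome P450 enzymes, the stretch whose cysteine binds the heme iron. It is shown because it is the catalytic feature that the 9 genes share. The sequences are 30 coding bases from the GENCODE M21 transcripts on GRCm38, read 5′ to 3′ on the strand of the gene, with the cysteine codon in capitals.
Cyp4b1: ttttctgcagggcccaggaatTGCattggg
Cyp4a12a: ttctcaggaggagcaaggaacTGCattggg
Cyp4a14: ttctcaggaggatcaaggaacTGCattggg
Cyp4a10: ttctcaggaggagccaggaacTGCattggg
Cyp4f13: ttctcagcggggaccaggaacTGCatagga
Cyp4v3: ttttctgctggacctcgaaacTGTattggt
The stretch of Cyp4a12b had the letters of Cyp4a12a, and the stretches of Cyp4a31 and Cyp4a32 had those of Cyp4a10. Against Cyp4a10, Cyp4a12a differed at 1 base, Cyp4a14 at 2, Cyp4b1 and Cyp4f13 at 6 each and Cyp4v3 at 10. Over the whole coding sequence, Cyp4a12a and Cyp4a14 were 80.2% and 75.3% identical to Cyp4a10, so few differences here do not mark a close copy. In each gene the stretch lies across a splice junction. It runs over chr4:115625216-115625662 in Cyp4b1 (minus strand), chr4:115328986-115331846 in Cyp4a12a (plus), chr4:115487299-115489805 in Cyp4a14 (minus) and chr4:115529502-115532543 in Cyp4a10 (plus). In Cyp4f13 it runs over chr17:32924942-32925340 and in Cyp4v3 over chr8:45307107-45308407, both on the minus strand.

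Each library held between 15054763 and 19331942 counts. Values are CPM, counts relative to the size of the library with TMM scaling, given with the SD over 3 samples, and p-values are from edgeR's quasi-likelihood test, adjusted by Benjamini-Hochberg over all genes tested, with a call at 0.05. The test called 437 genes, 2.84% of those tested. The libraries of DHT replicate 2, control replicate 2 and control replicate 3 stood apart in markers of other cell types, given with the marker lists. Calls in this series rested on single libraries: their number was 19, 1224 and 0 when DHT replicate 1, 2 or 3 was left out, and 366, 7 and 89 when control replicate 1, 2 or 3 was left out. In bulk kidney, fewer cells of a type and less RNA per cell cannot be told apart.

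DHT kidneys held far more Cyp4b1 RNA than control kidneys, and Cyp4b1 was the called member: 1 of 9 was called higher and 0 lower, where 1.38% of all genes were called higher and 1.46% lower. By unadjusted p under 0.05, 3 of 9 passed, against 23.9% of all genes tested. The groups did not overlap in Cyp4b1, Cyp4a12a and Cyp4a12b, each higher in DHT. Of all genes tested, 29.8% had no overlap, 14.8% with DHT higher and 15% with DHT lower. The other 6 genes had overlapping groups. The median log2 fold change of the 9 genes was 0.11, against 0.003 over all genes tested.

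**Figure D1:**
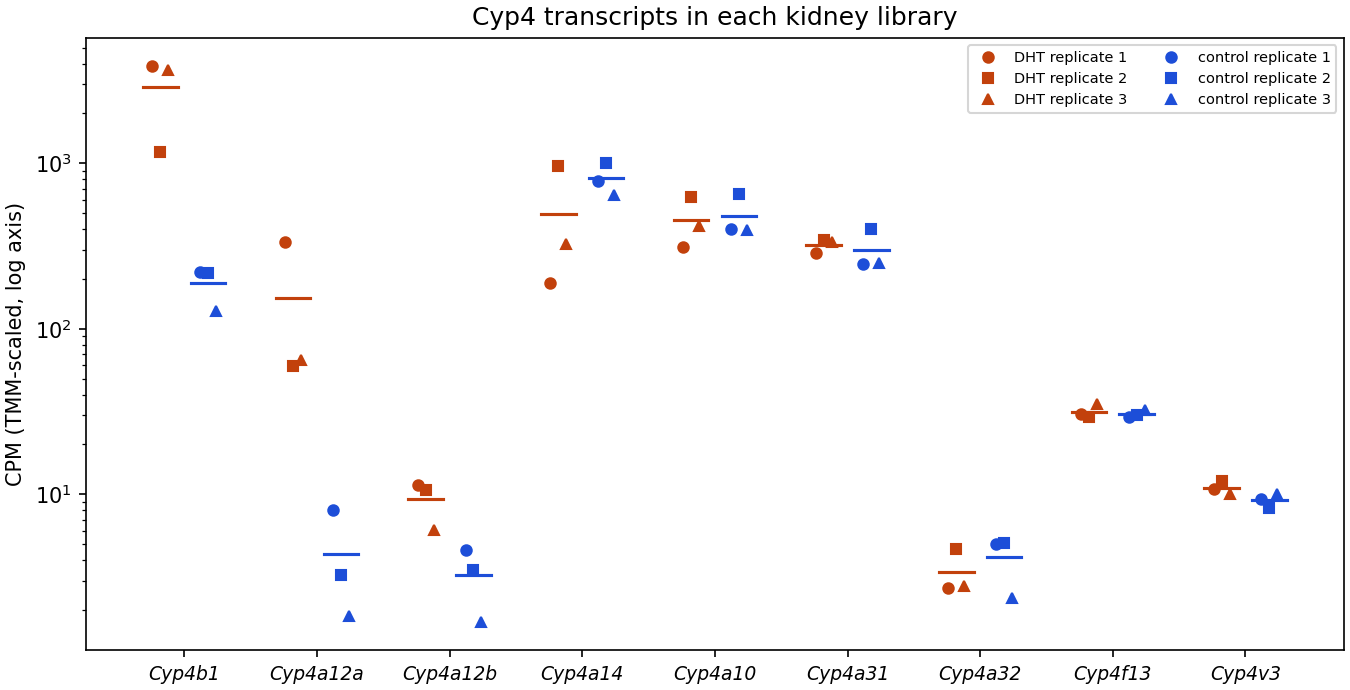
CPM (log axis) of the 9 Cyp4 genes in each library, with DHT in orange left of control in blue, replicate numbers as symbols and group means as bars. Cyp4b1 and Cyp4a12a lie apart by group, while the Cyp4a14 value of DHT replicate 2 lies among the controls.

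Cyp4b1 (ENSMUSG00000028713.17, chromosome 4, 115624725 to 115647723, minus strand, GRCm38) encodes an enzyme that hydroxylates fatty acids of short and medium length and is known in lung for activating a plant toxin. It had 3895, 1173 and 3662 CPM in DHT replicates 1, 2 and 3, against 222, 217 and 128 CPM in control replicates 1, 2 and 3. Every DHT kidney was above every control kidney, and the lowest DHT value was 5.29 times the highest control value. Within DHT, replicate 2 was the low sample, and replicate 1 had 3.32 times its value. Cyp4b1 averaged 2910 ± 1509 CPM in DHT kidneys and 189 ± 52.4 CPM in control kidneys (SD, n = 3 each). It rose by a log2 fold change of 3.95 ± 0.50 (SE), or 15.4-fold with a 95% interval of 6.87 to 34.6 (edgeR adjusted p = 0.0182).

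The call on Cyp4b1 depended on which libraries were used, while the size of the change did so little. Leaving out 1 library gave log2 fold changes between 3.68 and 4.31. The edgeR adjusted p was 0.000156 without DHT replicate 2 and 0.0361 without control replicate 1, in fits that called 4.72% and 0.716% of all genes higher. The call was lost when DHT replicate 1 or 3 was left out (0.0572 and 0.0943), and when control replicate 2 or 3 was left out (0.0885 and 0.0672). Those 4 fits called 0.0505%, 0%, 0.0127% and 0.212% of all genes higher, in the same order.

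The 250 bases before the start site of Cyp4b1 are shown because this gene had the called rise. They are from RefSeq on GRCm38.p6, chr4:115647722-115647971, minus strand. Capitals are at the match to the half-site that the androgen and glucocorticoid receptors both bind (AGAACA, here as its reverse complement).
Cyp4b1 upstream: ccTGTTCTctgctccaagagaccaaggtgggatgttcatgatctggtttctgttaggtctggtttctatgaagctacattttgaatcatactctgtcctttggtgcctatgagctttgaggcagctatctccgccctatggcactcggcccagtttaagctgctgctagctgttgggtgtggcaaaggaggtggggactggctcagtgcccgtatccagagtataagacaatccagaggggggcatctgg
Promoter windows of 300 bases were found by symbol for 4 of the 9 genes, Cyp4b1, Cyp4a32, Cyp4f13 and Cyp4v3. On either strand AGAACA was in the windows of Cyp4b1 and Cyp4a32, and in 19.0% of 32851 promoters. The half-site of nuclear receptors such as PPAR alpha, AGGTCA, was in none of the 4 windows and in 16.3% of all promoters. A direct repeat of AGGTCA with 1 base between was also in none of the 4, and in 0.04% of all promoters. AGAACA facing its own reverse complement over 3 bases, searched as an androgen response element, was in none of the 4 and in 0.009% of all promoters. Each longer pattern contains its half-site, and TATAAA, searched as well, was in Cyp4a32 alone of the 4 and in 13.6% of all promoters. A match is a description of the letters, and does not show binding.

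Cyp4a12a and Cyp4a12b, both on the plus strand of chromosome 4 (ENSMUSG00000066071.6, 115299046 to 115332815, and ENSMUSG00000078597.2, 115411624 to 115439034), are copies that in mice encode the Cyp4a12 arachidonic acid hydroxylases. Cyp4a12a had 335, 59.2 and 64.6 CPM in DHT replicates 1, 2 and 3, against 7.99, 3.27 and 1.83 CPM in control replicates 1, 2 and 3. The DHT kidneys were all higher, the lowest at 7.41 times the highest control kidney, and DHT replicate 1 had 5.65 times the value of DHT replicate 2. The means were 153 ± 158 CPM in DHT kidneys and 4.36 ± 3.22 CPM in control kidneys (SD, n = 3 each). The log2 fold change of Cyp4a12a was 5.16 ± 0.99 (SE), a 35.7-fold difference with a 95% interval of 6.74 to 189, and missed the threshold (edgeR adjusted p = 0.0543).

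This result sat close to the threshold. Cyp4a12a was called in 3 of 7 fits with another filter, scaling or test and in 0 of 6 fits that left out a library, with a log2 fold change between 3.85 and 5.90 in all of them. The adjusted p was 0.0487 with a filter of 1 CPM in 3 libraries, 0.0302 with no robust step and 1.34e-05 with DESeq2, which called 1.52%, 1.52% and 5.67% of all genes higher. It was between 0.0545 (without DHT replicate 2) and 0.168 (without control replicate 2) when 1 library was left out.

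Cyp4a12b was much scarcer than its copy in DHT kidneys. It had 11.3, 10.6 and 6.11 CPM in DHT replicates 1, 2 and 3, against 4.61, 3.48 and 1.68 CPM in control replicates 1, 2 and 3. The groups did not overlap, but the lowest DHT value was only 1.33 times the highest control value. The log2 fold change of Cyp4a12b was 1.53 ± 0.39 (SE; 95% interval 0.63 to 2.42) and did not pass (edgeR adjusted p = 0.0692). It passed with DESeq2 (0.00326) and with no low-count filter (0.0302, where 1.64% of all genes were called higher), and in none of the fits that left out a library.

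The coding sequences of Cyp4a12a and Cyp4a12b are 98.5% identical, with 23 differing bases in 1527. The 60 coding bases with the most differences (coding bases 624 to 683) are shown because reads can be given to 1 copy only where the letters differ. Capitals mark the 4 differing bases. The stretch crosses a splice junction, on the plus strand of GRCm38, at chr4:115326309-115326681 in Cyp4a12a and chr4:115432561-115432934 in Cyp4a12b.
Cyp4a12a: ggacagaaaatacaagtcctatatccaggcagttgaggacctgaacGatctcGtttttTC
Cyp4a12b: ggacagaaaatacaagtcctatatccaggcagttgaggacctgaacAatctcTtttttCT
Of all 100-base windows in the transcript, 35.8% in Cyp4a12a and 36.2% in Cyp4a12b occur in the other copy letter for letter, so their separate values are uncertain. The ratio of Cyp4a12a to Cyp4a12b counts was 29.6, 5.56 and 10.6 in DHT replicates 1, 2 and 3, against 1.73, 0.940 and 1.09 in control replicates 1, 2 and 3. The exon lengths of the copies are 2.422 and 2.395 kb, so length hardly enters this ratio. Its mean log2 was higher in DHT by 3.31, with no overlap between groups (2-sided exact permutation test p = 0.10, also after adjustment over 2 ratios, the smallest p that 3 against 3 samples allow). Between DHT replicates 1 and 2 Cyp4a12a differed 5.65-fold and Cyp4a12b 1.06-fold. With the copies summed before the fit, the pair had a log2 fold change of 4.43 (edgeR adjusted p = 0.0579).

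Cyp4a14 (ENSMUSG00000028715.2, chromosome 4, 115486200 to 115496142, minus strand), a PPAR alpha target, did not separate the groups, and 1 DHT kidney lay at the control level. It had 190, 966 and 327 CPM in DHT replicates 1, 2 and 3, against 786, 1001 and 641 CPM in control replicates 1, 2 and 3. DHT replicates 1 and 3 were below every control, and DHT replicate 2 was above control replicates 1 and 3. The log2 fold change of Cyp4a14 was -0.71 ± 0.57 (SE; edgeR adjusted p = 0.492), and its 95% interval, a ratio of 0.235 to 1.59, covers a large loss as well as a gain. Without DHT replicate 2 the log2 fold change of Cyp4a14 was -1.65 and it was called lower (adjusted p = 0.0178), in a fit that called 7.76% of all genes and 3.04% as lower. In DHT replicate 2 macrophage markers summed to 648 CPM, against 219 and 475 CPM in DHT replicates 1 and 3, and red blood cell markers to 70.3 CPM, against 2.89 and 4.51 CPM; their part in the Cyp4a14 value was not tested.

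The ratio of Cyp4b1 to Cyp4a14 counts, with no length correction, joined these patterns. It was 20.5, 1.21 and 11.2 in DHT replicates 1, 2 and 3, against 0.282, 0.216 and 0.2001 in control replicates 1, 2 and 3. DHT replicate 2 was the lowest of its group and still above every control. The mean log2 ratio was higher in DHT by 4.83 (2-sided exact permutation test p = 0.10, the smallest possible, and 0.10 after adjustment over 2 ratios). The lowest DHT value of Cyp4b1 alone was 5.29 times its highest control value, while the groups of Cyp4a14 overlapped. The separation of the ratio therefore follows from Cyp4b1 and adds no separate evidence.

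Cyp4a10 (ENSMUSG00000066072.13, 115518264 to 115533649), the other classical PPAR alpha target, and its close copies Cyp4a31 (ENSMUSG00000028712.12, 115563649 to 115579015) and Cyp4a32 (ENSMUSG00000063929.6, 115600969 to 115621602) lie on the plus strand of chromosome 4, and their groups overlapped. Cyp4a10 had 311, 628 and 418 CPM in DHT replicates 1, 2 and 3, against 399, 652 and 398 CPM in control replicates 1, 2 and 3. Cyp4a31 had 287, 344 and 334 CPM in DHT and 246, 398 and 248 CPM in control, in the same order of replicates. Replicate 2 was the highest of its group for both genes in DHT and in control. Cyp4a32, a far rarer transcript, had 2.70, 4.70 and 2.79 CPM in DHT and 4.98, 5.08 and 2.37 CPM in control.

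The ratio of DHT to control was 0.938 (95% interval 0.587 to 1.499) for Cyp4a10, 1.08 (0.780 to 1.498) for Cyp4a31 and 0.821 (0.453 to 1.49) for Cyp4a32. The edgeR adjusted p-values were 0.870, 0.775 and 0.681 in that order. Differences that lie inside these intervals are not excluded by these data. The coding sequences of Cyp4a31 and Cyp4a32 are 96.6% and 97.2% identical to that of Cyp4a10. Of 100-base windows, 12.7% in Cyp4a10, 8.2% in Cyp4a31 and 20.1% in Cyp4a32 occur in another gene, so the split among the copies is uncertain. Their summed log2 fold change was -0.01 (edgeR adjusted p = 0.980).

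Cyp4f13 and Cyp4v3 lie outside the chromosome 4 cluster and were the steadiest members in CPM. Cyp4f13 (ENSMUSG00000024055.15, chromosome 17, 32924688 to 32947402, minus strand) belongs to the Cyp4f subfamily, known for hydroxylating long fatty acids and leukotrienes. It had 30.6, 29.1 and 35.1 CPM in DHT replicates 1, 2 and 3, against 29.3, 30.1 and 32.1 CPM in control replicates 1, 2 and 3. Cyp4v3 (ENSMUSG00000079057.4, chromosome 8, 45304944 to 45333216, minus strand) is the mouse counterpart of a human gene whose loss causes a crystalline retinal disease. It had 10.7, 11.96 and 10.03 CPM in DHT and 9.41, 8.25 and 10.04 CPM in control. Both genes had overlapping groups, and within each group their highest library was at most 1.22 times the lowest. The ratio of DHT to control was 1.04 (95% interval 0.860 to 1.25; edgeR adjusted p = 0.819) for Cyp4f13 and 1.18 (0.899 to 1.55; adjusted p = 0.427) for Cyp4v3. Cyp4v3 shares 313 exonic bases, 8.2% of its exon length, with Gm45753 on the same strand.

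**Figure D2:**
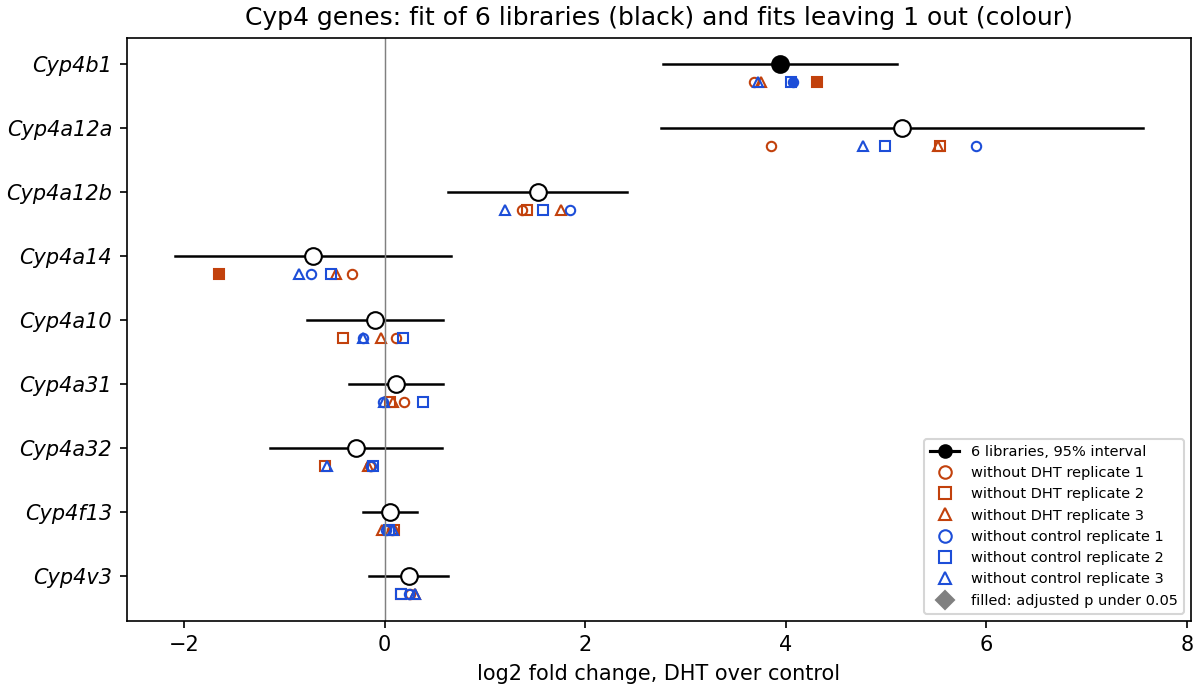
log2 fold change of DHT over control for the 9 Cyp4 genes: black circles are the fit of 6 libraries with its 95% interval, and coloured symbols are the fits that leave out 1 library, filled where the adjusted p is under 0.05. Cyp4b1 is called in the fit of 6 libraries and Cyp4a14 only without DHT replicate 2.

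Per length, the order of the family differed between the groups. In DHT kidneys Cyp4b1 was the most abundant, at 1290 ± 669 CPM per kb of exon, and its range did not meet that of the next gene. Cyp4a10 (215 ± 76.4), Cyp4a14 (190 ± 159), Cyp4a31 (128 ± 12.1) and Cyp4a12a (63.1 ± 65.1 CPM per kb) followed, each overlapping its neighbour in this order. Cyp4f13 (7.11 ± 0.696) lay below all of these and above Cyp4a12b (3.91 ± 1.18), Cyp4v3 (2.87 ± 0.257) and Cyp4a32 (2.21 ± 0.734 CPM per kb), whose neighbours overlapped.

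In control kidneys Cyp4a14 led the order, at 311 ± 69.5 CPM per kb, with a range that overlapped that of Cyp4a10 (229 ± 69.4). Cyp4a31 (119 ± 34.8) came next and overlapped Cyp4b1 (83.7 ± 23.2 CPM per kb). Cyp4f13 (6.87 ± 0.329) stood apart from its neighbours, above Cyp4a32 (2.70 ± 0.999), Cyp4v3 (2.42 ± 0.239), Cyp4a12a (1.80 ± 1.33) and Cyp4a12b (1.36 ± 0.617 CPM per kb), which ran into each other. Cyp4f13 is the member whose exon length depends most on the transcript set, and with the basic set it was at 18.03 CPM per kb in DHT and 17.4 CPM per kb in control, in the same place in both orders.

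Summed over the 9 genes, the Cyp4 pool was at 2216, 1368 and 2122 CPM per kb in DHT replicates 1, 2 and 3, against 705, 963 and 604 CPM per kb in control replicates 1, 2 and 3. Every DHT kidney was above every control kidney in this sum, which includes Cyp4b1. Cyp4b1 alone was at 1726, 520 and 1623 CPM per kb in DHT replicates 1, 2 and 3, against 98.2, 96.0 and 56.9 CPM per kb in control. The larger pool therefore does not show a rise of the family apart from Cyp4b1. Cyp4b1 made up 77.9%, 38.0% and 76.5% of the pool in DHT replicates 1, 2 and 3, against 13.9%, 9.96% and 9.42% in control replicates 1, 2 and 3. Cyp4a14 made up 3.30%, 27.2% and 5.93% in DHT and 42.9%, 39.9% and 40.8% in control. Cyp4a10, Cyp4a14 and Cyp4a31 together held 15.1%, 58.9% and 21.5% of the pool in DHT, against 83.6%, 88.5% and 88.4% in control. Neither the Cyp4b1 share nor the share of these 3 genes overlapped between groups. Shares of a single pool depend on each other, so a larger Cyp4b1 share lowers the others, and these are not separate results. In CPM the groups overlapped for each of the 3 genes, so their smaller share does not by itself show a fall in their levels. As a share of all counts, the 9 genes held 0.472%, 0.342% and 0.440% in DHT and 0.174%, 0.231% and 0.160% in control.

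**Figure D3:**
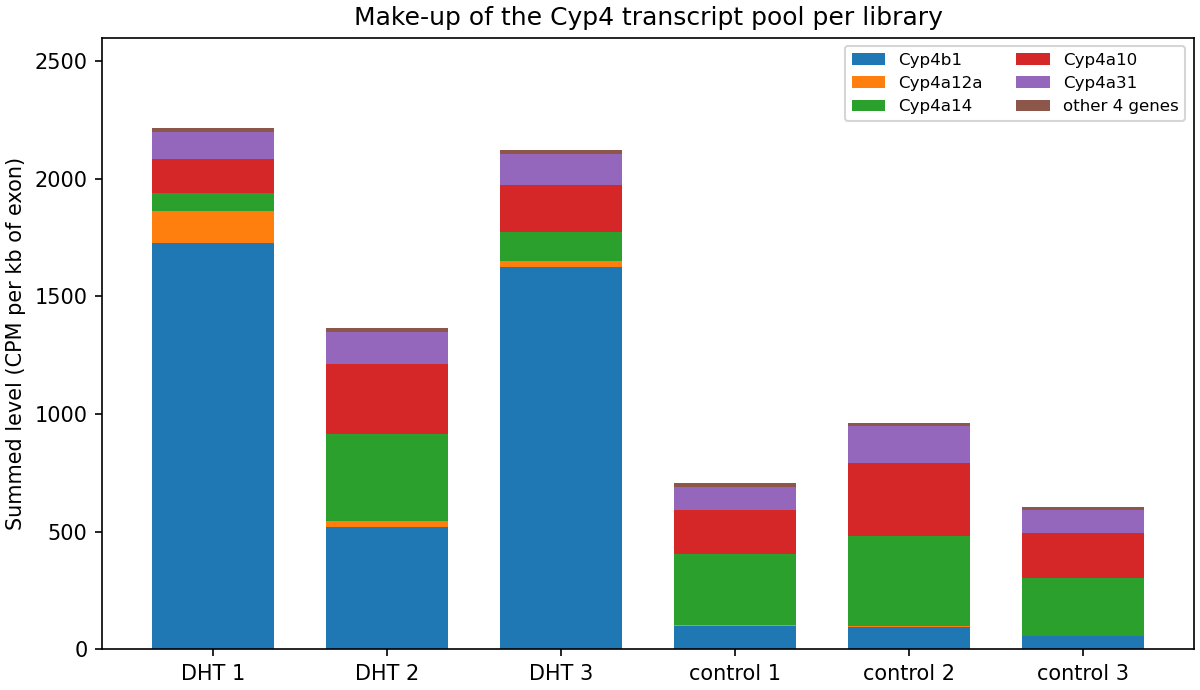
Stacked levels of the Cyp4 genes (CPM per kb of exon) in the 3 DHT libraries, left, and the 3 control libraries, right. Cyp4b1 holds most of the pool in DHT replicates 1 and 3, 38.0% in DHT replicate 2 and at most 13.9% in control.

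A set of 7 of the 9 genes lies within 349 kb of chromosome 4, from 115299046 to 115647723. In order along the chromosome they are Cyp4a12a, Cyp4a12b, Cyp4a14, Cyp4a10, Cyp4a31, Cyp4a32 and Cyp4b1. The genes with no overlap between groups lie at the outer ends, Cyp4a12a and Cyp4a12b at one and Cyp4b1 at the other, with the 4 overlapping ones between them. Of 17 other tested genes within 500 kb of the cluster, 0 were called by edgeR, where 2.84% of all genes were called. An unadjusted p under 0.05 was found in 3 of the 17, where 23.9% of all genes had one. Both counts are close to what these shares would give, so they say little about where the change ends. The log2 fold changes of the 17 were between -1.75 (Tex38) and 0.71 (Foxd2), with a median of -0.04. Efcab14, the nearest tested gene beyond Cyp4b1, with its start 90 kb away, had a log2 fold change of 0.003 (adjusted p = 0.987). Efcab14, Tex38 and Foxd2 were named after their values were seen.

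**Figure D4:**
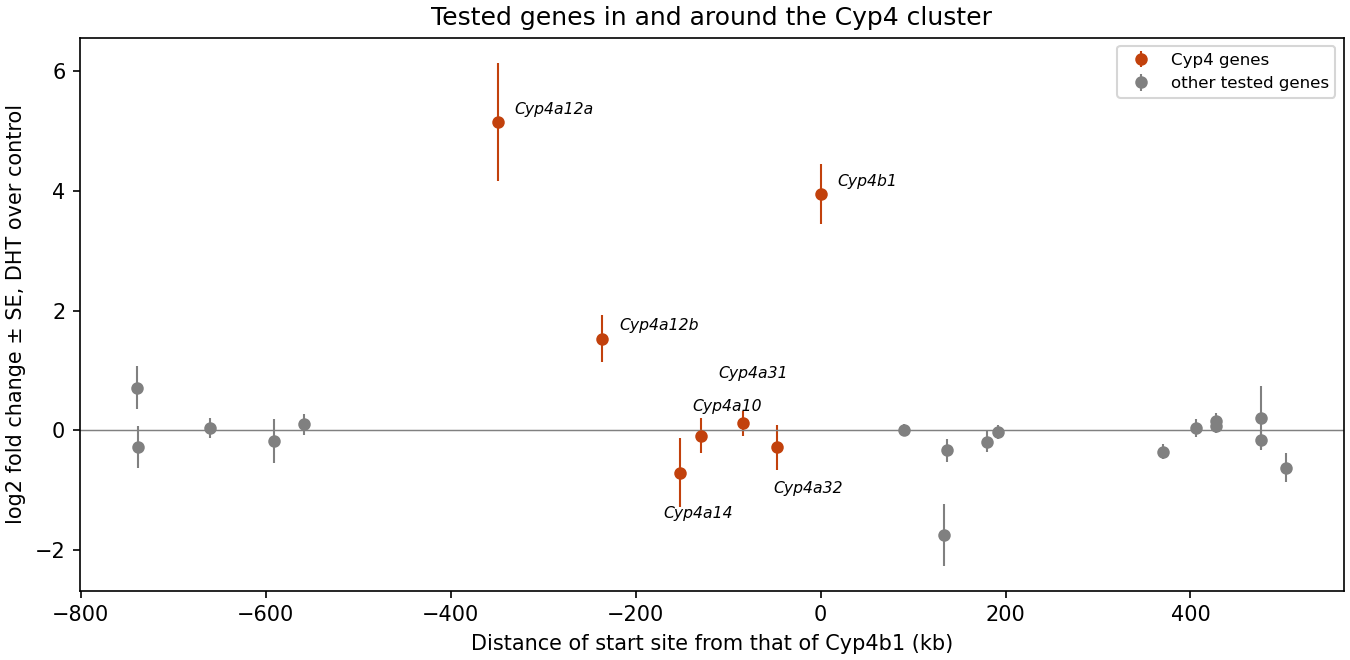
log2 fold change ± SE of DHT over control for tested genes by the distance of their start from that of Cyp4b1 in kb, with Cyp4 genes in orange and others in grey. Cyp4a12a and Cyp4b1, at the ends of the cluster, lie highest, and the genes outside the family lie between -1.75 and 0.71.

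Genes with the most similar pattern were taken by the smallest root mean square difference of log2 CPM centred on each gene's mean over the 6 libraries. For Cyp4b1 they were Nat8f5, an acetyltransferase family member (difference 0.09), Cyp2e1, a P450 that oxidises ethanol (0.26), and Angptl7, an angiopoietin-like secreted protein (0.30), where the own spread of Cyp4b1 was 1.999. Only 9 of the tested genes came within 0.5 of Cyp4b1. For Cyp4a12a the nearest were Acsm3 (0.68), 0610031O16Rik (0.80) and Gm40228 (0.80), and none came within 0.5. For Cyp4a12b they were Pbk, Kif2c and Gda (0.25 to 0.28), and for Cyp4a14 Kynu, Tnfrsf13b and Ms4a14 (0.21 to 0.24). The genes with little spread of their own had 6417 or more genes within 0.5, so likeness says little for them. The nearest were Dio3os, Tmem37 and Acot2 to Cyp4a10, Gm39887, Taf7 and Eda to Cyp4a31, Fmo4, Olfm3 and Mbl1 to Cyp4a32, Narfl, Cog2 and Tm2d3 to Cyp4f13, and Plekha2, Ercc8 and Dll1 to Cyp4v3. The same 6 libraries give the group difference and the likeness, so a gene that moved with the groups is near by that alone.

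Of 15 further Cyp4 genes and pseudogenes, 5 passed the filter, 6 had 0 counts in all libraries and 0 were called. An unadjusted p under 0.05 was found in 4 of the 5, 1 higher and 3 lower, against 23.9% of all genes tested. The 5 tested had a median log2 fold change of -0.85. Cyp4f17, of the same subfamily as Cyp4f13, had 10.6, 6.51 and 6.17 CPM in DHT replicates 1, 2 and 3, against 12.9, 16.2 and 12.8 CPM in control replicates 1, 2 and 3, with no overlap (log2 fold change -0.85 ± 0.24, edgeR adjusted p = 0.0844). The pseudogene Cyp4f41-ps was at 0.225 ± 0.033 CPM in DHT kidneys and 0.663 ± 0.086 CPM in control kidneys (adjusted p = 0.106). Cyp4f18, the 1 that was higher, had 1.44, 3.76 and 1.25 CPM in DHT replicates 1, 2 and 3, against 0.799, 1.04 and 0.693 CPM in control replicates 1, 2 and 3 (log2 fold change 1.34 ± 0.50, edgeR adjusted p = 0.152). It too was named after its values were seen.

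Around the Cyp4 reaction, 2 genes of electron supply and 4 of the downstream list were called higher in DHT kidneys. Of 5 electron donors 2 were called higher, against 1.38% of all genes: Cyb5a, which encodes cytochrome b5, and Cyb5r3, its reductase. Cyb5a was at 950 ± 291 CPM in DHT kidneys and 356 ± 30.2 CPM in control kidneys (log2 fold change 1.42 ± 0.24, edgeR adjusted p = 0.0322), with DHT replicate 2 the lowest of its group at 613 CPM. Cyb5r3 was at 184 ± 35.4 CPM in DHT and at 107 ± 8.88 CPM in control kidneys (adjusted p = 0.0453). Por, which encodes P450 reductase, was at 405 ± 111 CPM in DHT kidneys and 268 ± 46.1 CPM in control kidneys and did not pass (adjusted p = 0.150). The median log2 fold change of the 5 was 0.60, against 0.003 over all genes tested. Without DHT replicate 2, 3 electron donors and 8 genes of the downstream list were called higher, in a fit that called 4.72% of all genes higher. With any other library left out, 0 electron donors and 0 to 2 downstream genes were called higher. Those fits called at most 0.716% of all genes higher.

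Of 20 tested genes of the steps after hydroxylation, which oxidise the hydroxy acids to dicarboxylic acids and activate, carry, transfer or shorten fatty acids in peroxisomes and elsewhere, 4 were called higher and 0 lower, against 1.38% and 1.46% of all genes, with a median log2 fold change of 0.39 and 16 of 20 above 0. Adh1, an alcohol dehydrogenase, had 1519, 350 and 1380 CPM in DHT replicates 1, 2 and 3, against 105, 107 and 111 CPM in control replicates 1, 2 and 3 (log2 fold change 3.33 ± 0.53, edgeR adjusted p = 0.0345). DHT replicate 2 was again the lowest of its group, and still above every control. Aldh3b1, an aldehyde dehydrogenase, was at 18.01 ± 1.97 CPM in DHT kidneys and 8.63 ± 2.04 CPM in control kidneys, and Eci2, a peroxisomal isomerase, at 131 ± 18.5 CPM in DHT, against 64.4 ± 5.20 CPM in control (adjusted p = 0.0376 and 0.0162). Acaa1a, the peroxisomal thiolase, was at 121 ± 1.87 CPM in DHT kidneys and 84.1 ± 7.44 CPM in control kidneys (adjusted p = 0.0465). Acsl1, which joins fatty acids to coenzyme A, went the other way without passing, at 120, 352 and 167 CPM in DHT replicates 1, 2 and 3, against 596, 737 and 539 CPM in control replicates 1, 2 and 3, with no overlap (log2 fold change -1.55 ± 0.38, edgeR adjusted p = 0.0696). It was called lower without DHT replicate 2 (log2 fold change -2.13, edgeR adjusted p = 0.00222) and with DESeq2 (adjusted p = 0.000209), and was named after its values were seen.

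Of 28 tested genes in the list of PPAR alpha and its targets, which shares members with the downstream list, 1 was called higher and 1 lower, against 1.38% and 1.46% of all genes, with a median log2 fold change of 0.23. At an unadjusted p under 0.05, 7 were higher and 2 lower, where 23.9% of all genes tested passed in either direction. Plin2, a lipid droplet coat protein, was at 109 ± 5.62 CPM in DHT kidneys and 60.4 ± 2.74 CPM in control kidneys (edgeR adjusted p = 0.0142), and Ppargc1a, a coactivator of the receptor, at 85.5 ± 7.62 CPM in DHT, against 123 ± 5.10 CPM in control (adjusted p = 0.0491). Ppara, the receptor itself, was at 170 ± 30.9 CPM in DHT kidneys and 136 ± 47.5 CPM in control kidneys and did not pass (adjusted p = 0.476). Of 14 genes of arachidonic acid release and its epoxide route 1 was called, Cyp2j13, a P450 of the epoxygenase subfamily, higher in DHT at 592, 47.3 and 481 CPM in DHT replicates 1, 2 and 3, against 1.11, 0.882 and 0.396 CPM in control replicates 1, 2 and 3 (adjusted p = 0.0343). Of 7 tested receptors for steroids, prolactin and growth hormone 0 were called, with 1 at an unadjusted p under 0.05, against 23.9% of all genes. Esr1, an oestrogen receptor, was at 18.3 ± 3.32 CPM in DHT, against 8.76 ± 3.01 CPM in control (edgeR adjusted p = 0.0627), and Prlr, the prolactin receptor, at 140 ± 83.8 CPM in DHT, against 304 ± 116 CPM in control (adjusted p = 0.224).

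Over all 6 lists, 8 of 74 tested genes were called higher and 1 lower, or 12.2% in either direction, against 2.84% of all genes. With 1 library left out, 16 were higher and 2 lower if that was DHT replicate 2, a fit in which the share of all genes was also larger, at 4.72% higher and 3.04% lower. They were 3 and 1 if control replicate 1, and 2 and 0 if control replicate 3. With any of the other 3 left out, 0 were called. The lists were chosen with earlier results of these data known. A larger share than that of all genes, here or in a single list, is therefore not independent evidence.

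**Figure D5:**
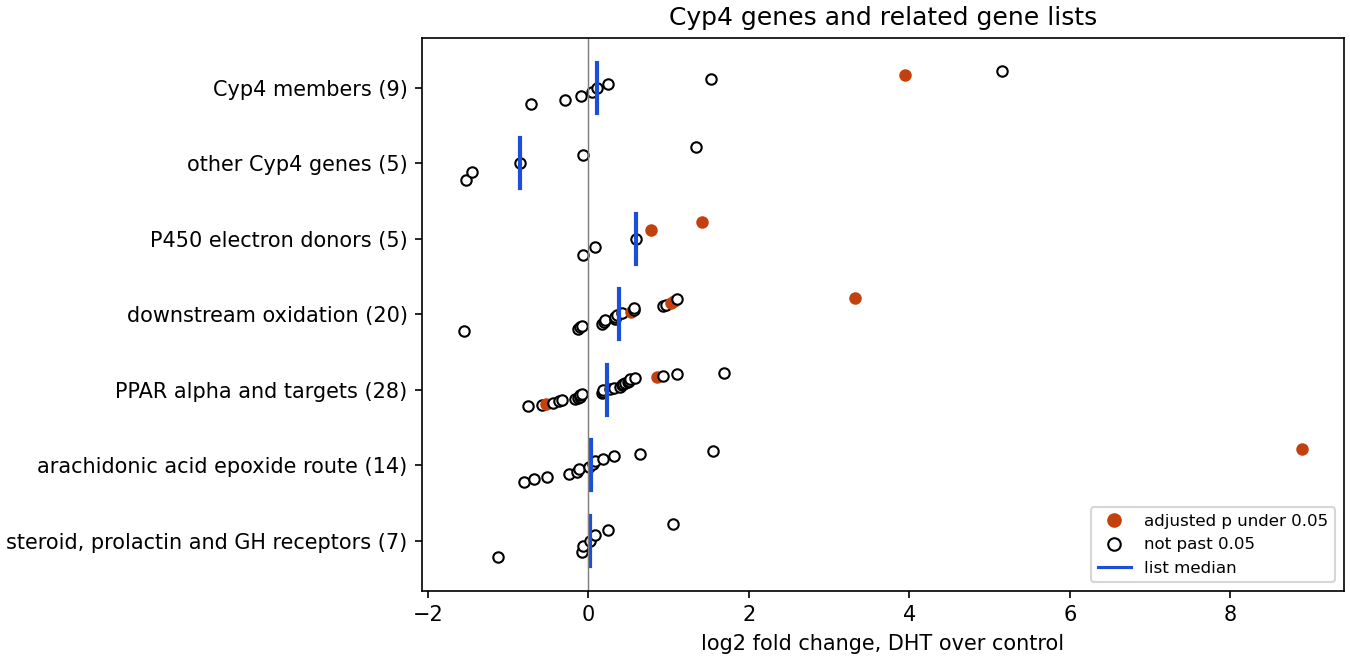
log2 fold change of DHT over control for tested genes of each list, with list sizes in brackets, orange points for genes called, open points for the rest and a blue bar at the list median. Among the electron donors 2 of 5 and among the downstream oxidation genes 4 of 20 are called, all to the right of 0.

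Markers of kidney cells and of other tissues give the setting of these values. Proximal tubule markers of the early segments were all 8 tested with 0 called, and summed to 9565 to 11915 CPM in DHT and 8999 to 13571 CPM in control. The largest part was Slc34a1, with a mean of 4805 CPM in DHT and 4821 CPM in control. Slc22a6, the 1 marker of the 8 with a log2 fold change above 0, had 1.03 with no overlap (edgeR adjusted p = 0.0640). Lrp2 had -0.41 with no overlap and Slc5a2 -0.81 with overlap (adjusted p = 0.209 and 0.130). Straight segment markers, 6 tested with Slc7a13 called higher, summed to 3389, 745 and 3096 CPM in DHT replicates 1, 2 and 3, against 447, 1246 and 1137 CPM in control replicates 1, 2 and 3. DHT replicate 2, the DHT library with the least Cyp4b1 RNA, was the low one here as well, within the control range. The 6 markers did not move as one. Atp11a, the largest part of the sum in DHT, had 2037, 295 and 1834 CPM in DHT replicates 1, 2 and 3, against 186, 576 and 521 CPM in control replicates 1, 2 and 3, so its groups overlapped. Slc5a8 had a log2 fold change of 1.45 with no overlap (edgeR adjusted p = 0.0696), and Slc5a1 one of 0.04. Slc22a7 averaged 42.3 CPM in DHT against 185 CPM in control, and Slc22a13 averaged 53.4 CPM in DHT against 108 CPM in control, both with overlapping groups (log2 fold changes -2.13 and -1.02, adjusted p = 0.202 and 0.347). Without Slc7a13, a sum looked at after the values were seen, the range was 629 to 2649 CPM in DHT and 446 to 1244 CPM in control, and most of the high DHT sums was Atp11a. The part of these markers in the Cyp4b1 values was not tested.

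Macrophage markers (8 tested, 0 called) summed to 219 to 648 CPM in DHT and 209 to 433 CPM in control, and endothelial markers (6 tested, Ehd3 called higher) to 341 to 608 CPM in DHT, against 338 to 396 CPM in control. Red blood cell markers (4 of 5 tested, 0 called) summed to 2.89 to 70.3 CPM in DHT and 7.82 to 37.5 CPM in control. Markers of the loop of Henle and distal tubule (5 tested, 0 called) summed to 6206 to 7197 CPM in DHT and 7927 to 12865 CPM in control. The sums did not overlap, with the highest in control replicate 3, but each of the 5 markers on its own had overlapping groups. Collecting duct markers (6 tested, 0 called) were at 604 to 654 CPM in DHT and 459 to 923 CPM in control, and podocyte markers (5 tested, 0 called) at 543 to 811 CPM in DHT, against 574 to 704 CPM in control. Of tissues outside the kidney that express Cyp4 genes, liver markers (6 of 8 tested, 0 called) summed to 246 to 374 CPM in DHT and 294 to 480 CPM in control, with Alb at 12.5 to 16.9 CPM in DHT, against 8.71 to 19.4 CPM in control, and Cyp3a11 at 5 counts or fewer in each DHT library and 6 or fewer in each control library. The liver markers with the smallest p had no overlap and opposite signs. Serpina1a had 7.16, 40.6 and 11.98 CPM in DHT replicates 1, 2 and 3, against 2.77, 3.79 and 3.61 CPM in control replicates 1, 2 and 3 (log2 fold change 2.55, edgeR adjusted p = 0.0852). Fgb had 1.26, 4.88 and 2.73 CPM in DHT, against 5.84, 8.35 and 6.23 CPM in control (log2 fold change -1.20, adjusted p = 0.144). Airway markers (1 of 4 tested, 0 called) summed to 1.13 to 2.85 CPM in DHT, against 1.04 to 1.41 CPM in control. Fat markers (1 of 6 tested, 0 called) summed to 30.5 to 116 CPM in DHT and 30.3 to 67.1 CPM in control, most of it Fabp4, and Adipoq had at most 3 counts in each DHT library and 55 in control replicate 2. In that control library Ucp1 had 93 and Plin1 44 counts, against 0 counts of either in each DHT library and at most 8 and 2 in the other control libraries. Adrenal markers (1 of 6 tested, 0 called) summed to 0.475 to 2.19 CPM in DHT and 2.27 to 15.3 CPM in control, with Cyp11b1, Cyp11b2 and Cyp21a1 at 0 counts throughout and 128 counts of Cyp11a1 in control replicate 3.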

How the data were processed

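RNA was measured in 6 kidney samples. Per the labels' protocols, mRNA libraries were made from Trizol-extracted RNA. The tool and build named are HISAT2 2.0 and mm10, per the submitters' processing notes. The authors deposited 1 table of raw, whole-number counts by symbol. Its counting tool, annotation, strand setting and handling of reads with several matches were not given in the sources used here. Columns were matched to samples by title.

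Counts were filtered with filterByExpr (minimum count 10, total 15), scaled by TMM and tested with a robust quasi-likelihood fit with group as its single term in edgeR 4.0.16 (R 4.3.3). SE is that implied by the F statistic, and intervals use its degrees of freedom. The common biological coefficient of variation was 0.217. Alternatives were other scalings and filters, DESeq2 1.42.0, limma-voom (limma 3.58.1), no robust step, a replicate block, summed copies and leaving out each library. In simulated counts for DHT against control (15103 genes tested, changed genes at a mean of 20 counts or more), 2%, 72%, 88% and 96% of genes changed 1.5-, 2-, 4- and 8-fold were called, with 13 false calls. The simulated counts were drawn independently for each gene and library, with no library apart in many genes at once. These shares may therefore not hold for the libraries here.

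Positions, exon lengths and transcripts are from GENCODE M21 on GRCm38, the assembly of mm10, matched by symbol; coding sequences were aligned with MAFFT 7.526. All pairs of libraries within a group differed by more than sampling noise. The members and lists were chosen with earlier results of these data known. Named genes were the members, the called genes of each list (at most 4, by p) or otherwise its first 2, Ppara and Por, and the 3 genes most like each member. This rule did not cover markers, whose named genes were chosen after their values were seen; 1 further gene is not reported here.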

Additional observations from a re-analysis of the deposited data

How the results depend on the processing

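With 1 library left out, the number of Cyp4 genes called higher was 0 to 1 and lower 0 to 1, that of all genes 0 to 745 higher and 0 to 479 lower (212 and 225 with all 6), and that of the 6 lists 0 to 16 higher and 0 to 2 lower. Cyp4 genes called higher numbered 1 with all 6 libraries, 2 with no low-count filter, with 1 CPM in 3 libraries and with no robust step, and 3 with DESeq2. These fits called 1.38%, 1.64%, 1.52%, 1.52% and 5.67% of all genes higher, in the same order. Over all genes, 132 were higher with total counts, 418 higher and 434 lower with no low-count filter and 854 and 780 with DESeq2. Total counts moved the median log2 fold change of all genes to -0.10 and left 208 lower, a split of 132 to 208. In the 6 lists, 20 were higher and 4 lower with DESeq2, 5 and 0 with limma-voom, 3 lower with no low-count filter and 0 lower with no robust step. The cause of these shifts was not tested.

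No label says that replicate numbers pair the samples. Same-numbered libraries had correlations of deviations from the group means of 0.07, -0.15 and 0.04, and libraries of different number between -0.13 and 0.13. With 3 samples a group, these values cannot decide whether samples were paired. With the replicate block 36 genes were higher and 49 lower, in the lists 1 and 0. Cyp4b1 then had a log2 fold change of 3.82 and missed the threshold (edgeR adjusted p = 0.0597), and Cyp4a12a passed (0.0112).

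Log2 fold changes of 3 genes near 0 changed sign, none past the threshold. Cyp4a10 was between -0.41 and 0.18 with 1 library left out (0.12 without DHT replicate 1), Cyp4a31 between -0.014 and 0.38, and Cyp4f13 between -0.029 and 0.098. Cyp4f13 was at -0.061 with total counts. The Cyp4a14 share in control was 41.2% of the pool per length and 44.3% of raw counts. Cyp4f13 was at 7.11 and 6.87 CPM per kb in DHT and control, and at 18.03 and 17.4 with the exon length of the basic set. With 3 samples a group, a 1.5-fold change was rarely called in simulated counts (2%), so changes of that size may be missed here. The simulation had no library apart in many genes at once, so the share itself may not hold.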
